A study of Mus musculus with 48 samples.

Results

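Ighv8-12 and 2 sites without an annotated gene are places in the VH region of the mouse Igh locus, which encodes the immunoglobulin heavy chain on chromosome 12, and they were the 3 VH sites most often joined in cells with a degron on the cohesin release factor Wapl once auxin was given. They were chosen by their junctions in the deposited lists, at chr12:116886148-116886191 (mm9) for Ighv8-12 and at chr12:116930093-116930134 and chr12:115850443-115850481 for the sites. They held 18962 of the 605816 VH junctions and of the 10275487 junctions in all in 25 libraries. The VH junctions fell into 671 segments, so these are 3 of 671. Because the treated libraries chose them, their rank and their rise in those libraries are described here without a test.

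V(D)J recombination builds an immunoglobulin heavy chain gene in developing B cells. The RAG endonuclease first joins a D segment to a JH segment and then a VH segment to the DJH joint. RAG cuts between the coding sequence and a recombination signal sequence, which consists of a heptamer, a spacer and a nonamer. Cohesin extrudes chromatin past the RAG-bound recombination centre at the D and JH segments, and Wapl releases cohesin from DNA. In pro-B cells of the bone marrow the whole VH region is contracted and distal VH segments are used, whereas transformed pro-B lines mostly use the VH segments nearest to the D segments.

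Junctions were mapped by LAM-HTGTS, in which a primer at a bait, here the JH1 to JH4 segments, is linearly extended through the joint and the DNA joined to the bait, the prey, is sequenced. The bone marrow groups were C57BL/6 primary pro-B cells, 3 WT libraries and 4 libraries that carry an Igh inversion (INV), all RAG1 deficient by their labels, isolated on B220 beads and cultured with SCF (2 ng/mL) and IL-7 (10 ng/mL). The lines were v-Abl transformed pro-B cells, all OsTIR1, Emu-Bcl2 and RAG1 deficient, treated with 3 uM STI-571 for 4 days. Labels name the parental line untreated (3 libraries), a Wapl-degron line untreated (3) and with IAA and Dox (3), a Wapl-degron line with a single Igh allele untreated (3) and with IAA and Dox (3), and an inverted derivative of the single-Igh line with IAA and Dox (3). Auxin (IAA) was used at 150 uM for 3 days and the labels give doxycycline (Dox) as 2 mg/mL. OsTIR1 is the plant protein through which auxin marks a degron-tagged protein for breakdown, and Emu-Bcl2 is a survival transgene driven by the heavy chain enhancer. The labels do not say how RAG was supplied to RAG1 deficient cells, whether a line is 1 clone, or whether replicates came from separate mice or cultures, so p-values measure only the spread between these libraries. The genotype label of the inverted single-Igh line is that of the uninverted one, and only the title names the inversion.

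The libraries held 61194 to 1016401 junctions each. VH junctions numbered 61394 to 182742 per WT bone marrow library and 24237 to 92022 per INV library, but 1900 to 9172 per library of the uninverted lines, and 144, 1149 and 1685 in the inverted single-Igh line. In WT bone marrow the part of the list that lay in VH differed widely, from 6.04% to 45.5%, while junctions within JH took 5.06% to 87.4%. For this reason levels are given as the percent of VH junctions, and as the percent of all junctions where stated. In one Wapl-degron IAA and Dox library, replicate 2, 28.4% of the 226216 lines repeated a read name, leaving 161891 names.

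Both unannotated sites coincided in order and spacing with named V segments of RefSeq (GRCm38.p6), which is a different build, so no RefSeq coordinate is given. The first site lay 43944 bp beyond the coding end of Ighv8-12, and RefSeq places Ighv1-70 at a spacing of 43944 bp from the same gene. The second lay 3607 bp from the coding end of Ighv1-12, and RefSeq places Ighv1-11 at 3606 bp. They are called the Ighv1-70 site and the Ighv1-11 site below, names that rest on order and spacing alone. From JH1 the distances were 1182 kb for the Ighv1-11 site, 2218 kb for Ighv8-12 and 2262 kb for the Ighv1-70 site. The Ighv1-11 site was on the near side of the midpoint of the VH region as seen from the D segments, the other two beyond it.

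The coding ends and signals of the 3 sites show how RAG could cut each of them. Each line runs 5′ to 3′ on the strand of the VH coding sequence (the minus strand of mm9). It gives 45 coding bases, the heptamer in capitals, the spacer in lower case and the nonamer in capitals. The spacer was fixed at 23 bases, so the nonamer is marked at that distance only.
Ighv8-12, chr12:116886117-116886200: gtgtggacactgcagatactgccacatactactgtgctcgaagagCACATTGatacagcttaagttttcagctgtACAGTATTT
Ighv1-70 site, chr12:116930061-116930144: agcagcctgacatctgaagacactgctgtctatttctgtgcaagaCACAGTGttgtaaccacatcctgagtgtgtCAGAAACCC
Ighv1-11 site, chr12:115850415-115850498: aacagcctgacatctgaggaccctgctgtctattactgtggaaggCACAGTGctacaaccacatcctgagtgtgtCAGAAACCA

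Ighv8-12 carried the heptamer CACATTG, which matches the consensus CACAGTG at 6 of 7 bases, and both other sites carried the consensus itself. The heptamer was read at the joined end on the coding strand, with the nonamer at a fixed distance of 23 bases further. Other spacer lengths were not scored, so a better nonamer at another distance would be missed. Among 104 annotated VH segments with at least 10 junctions, 79 (76.0%) had the consensus heptamer and 4 (3.85%) had that of Ighv8-12. Those 4 were Ighv8-5, Ighv8-8, Ighv8-11 and Ighv8-12, and 0 of the 7 annotated Ighv8 segments with junctions had the consensus. At this spacing the matches to the consensus nonamer ACAAAAACC were 4 of 9 bases for Ighv8-12, 5 for the Ighv1-70 site and 4 for the Ighv1-11 site. The median over the annotated segments was 5 and their range 3 to 9. These counts may be too low where the spacer has another length. At both unannotated sites the 9 bases that start at the last spacer base match the consensus better than the marked nonamer. The annotated segments were not read at that spacing. Neither the heptamer of Ighv8-12 nor its nonamer, read at this spacing, was thus closer to the consensus than in the typical annotated segment.

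The Ighv8 family and the Ighv1 family belong to different VH groups, and the coding sequences differed accordingly. Over the V region Ighv8-12 was 59.2% identical to the Ighv1-70 site and 62.5% to the Ighv1-11 site, and those sites were 80.5% identical to each other, with 20 of 23 spacer bases the same. The closest annotated genes to Ighv8-12 were Ighv8-9 (95%), then Ighv8-8 and Ighv8-6 (both 94.7%). They were Ighv1-56 (91.3%) and Ighv1-77 (90.3%) for the Ighv1-70 site, and Ighv1-84 and Ighv1-76 (both 82.0%) for the Ighv1-11 site. Each alignment covered 300 bases. Reads of near-identical genes may have been removed or moved by the mapping filter, so the Ighv8-12 count is the least certain in this respect. The reading frame was set by the last cysteine codon before the coding end, and codons were read up to it. In that frame the Ighv1-70 site had 1 stop codon in 98 codons, a TAG 183 bases before the coding end. The Ighv1-11 site (98 codons) and Ighv8-12 (96 codons) had 0. LAM-HTGTS reads joints in DNA whether or not they encode a protein.

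In WT bone marrow the 3 sites ranked from 8 to 52 among VH segments by their group means. Ighv8-12 took 1.07%, 1.12% and 0.710% of VH junctions in the 3 libraries, a mean of 0.965% ± 0.222 (SD, n = 3). It ranked 39 among 269 segments with a junction. The Ighv1-70 site took 0.679%, 0.857% and 0.881% (0.806% ± 0.111) and ranked 52. The Ighv1-11 site took 1.39%, 2.14% and 2.30% (1.94% ± 0.483) and ranked 8, with ranks of 17, 6 and 6 in the single libraries. Every Ighv1-11 value was above every value of the other sites, whose ranges overlapped each other. Together they held 3.71% ± 0.509 of VH junctions.

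In the untreated lines Ighv8-12 and the Ighv1-70 site were rarely joined, and the Ighv1-11 site more often. In the parental line Ighv8-12 took 0.0361%, 0.354% and 0.386% of VH junctions, resting on 1, 21 and 21 junctions. The Ighv1-70 site took 0.830%, 0.151% and 0.221%, and the 23 junctions behind the first value were 1 distinct junction listed 23 times. The Ighv1-11 site took 0.613%, 0.724% and 0.957%. In the untreated Wapl-degron line the 3 libraries gave 0.263%, 0.255% and 0.100% for Ighv8-12, 0.105%, 0.0941% and 0.138% for the Ighv1-70 site, and 1.00%, 0.954% and 0.967% for the Ighv1-11 site. In the untreated single-Igh line they gave 0.389%, 0.269% and 0.217%, then 0.0487%, 0.0350% and 0.0669%, then 0.438%, 0.759% and 0.853%, in the same order of sites. In both degron lines the Ighv1-11 site was above both other sites in every library.

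After IAA and Dox all 3 sites stood at the top of the VH region, as the choice of sites requires. In the Wapl-degron line the Ighv1-70 site took 6.53%, 6.23% and 6.02% of VH junctions, Ighv8-12 5.50%, 5.46% and 5.30%, and the Ighv1-11 site 4.47%, 4.83% and 3.99%. The ranges did not overlap, and the order was the same in each library. With each distinct junction counted once the order was also the same, but the ranges of the Ighv1-70 site (5.26% to 5.65%) and Ighv8-12 (5.01% to 5.36%) overlapped. In the single-Igh line Ighv8-12 led with 5.22%, 5.76% and 5.87%, followed by the Ighv1-70 site with 4.61%, 4.96% and 4.93% and the Ighv1-11 site with 3.65%, 4.50% and 4.22%. Here too the order was the same in each library by listed junctions, but with each distinct junction counted once the Ighv1-11 site was above the Ighv1-70 site in replicates 1 and 2 (3.47% against 3.42% and 4.24% against 4.07% of distinct VH junctions). Together the sites held 16.1% ± 0.694 of VH junctions in Wapl-degron and 14.6% ± 0.950 in single-Igh cells, against 1.29% ± 0.0819 and 1.03% ± 0.134 untreated. When each distinct junction was counted once the treated shares were 14.9% ± 0.488 and 12.2% ± 1.33.

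**Figure D1:**
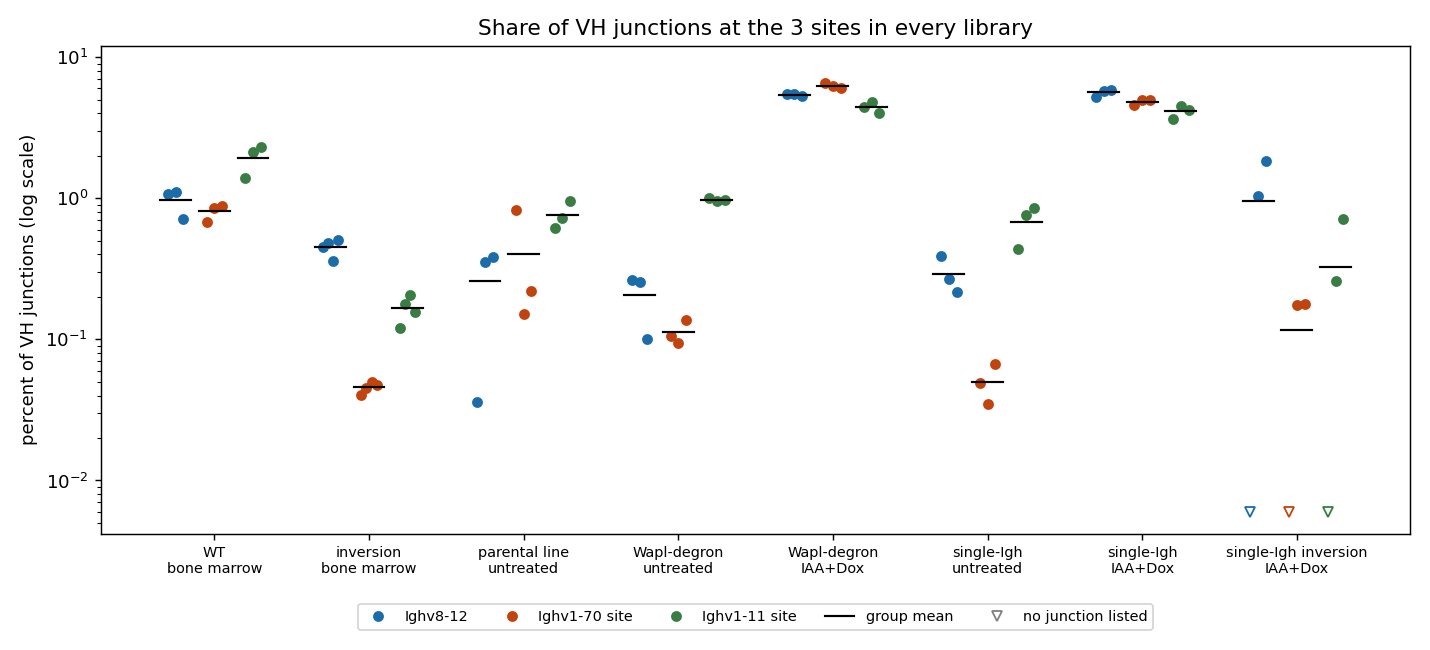
Percent of VH junctions (log scale) at Ighv8-12, the Ighv1-70 site and the Ighv1-11 site in each library, by group; points are libraries, lines are group means and open triangles are libraries with no junction at the site. With IAA and Dox and no inversion the 3 sites lie between 3.65% and 6.53%. They lie between 0% and 1.84% in the inverted single-Igh line, and between 0.679% and 2.30% in WT bone marrow.

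The size of the rise differed among the sites, and depended on what it was measured against. As a percent of all junctions the Ighv1-70 site was 238-fold higher with IAA and Dox than without in the Wapl-degron line (1060 against 20 junctions), Ighv8-12 was 117-fold higher (921 against 32) and the Ighv1-11 site 19.5-fold (760 against 167). In the single-Igh line the folds were 360 (910 against 9), 68.5 (1057 against 52) and 23.1 (789 against 134). The part of the list in VH itself went from 0.876% ± 0.0918 to 3.80% ± 0.732 and from 1.27% ± 0.226 to 4.70% ± 0.204 (n = 3 each). As a percent of VH junctions the folds were accordingly smaller, 55.6, 26.3 and 4.55 in Wapl-degron and 96.3, 19.2 and 6.04 in single-Igh cells. With distinct junctions counted once, of all distinct junctions, they were 86.3, 41.3 and 8.18, and 118, 24.1 and 6.86. By group means the Ighv1-70 site thus came from the lowest untreated level of the 3 in both degron lines. In untreated Wapl-degron replicate 3, however, it was above Ighv8-12 (0.138% against 0.100% of VH junctions). Its folds rest on 20 and 9 untreated junctions. Without treated Wapl-degron replicate 2, the library with surplus lines, the log2 ratios to untreated in percent of all junctions were 7.99 for the Ighv1-70 site, 6.96 for Ighv8-12 and 4.32 for the Ighv1-11 site, beside 7.89, 6.87 and 4.29 with it.

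The sites just outside the choice were Ighv8-8 with 3.38% of VH junctions over the 6 treated libraries, Ighv12-3 with 3.35% and Ighv5-2 with 3.08%, beside 5.55%, 5.52% and 4.28% for the Ighv1-70 site, Ighv8-12 and the Ighv1-11 site. Ighv8-8 is the relative with the same heptamer. It took 1.43% of VH junctions in WT bone marrow. Ighv5-2, the VH gene nearest to the D segments among these, stood apart in the other direction, with 44.6% of VH junctions in the untreated single-Igh line and 7.45% in WT bone marrow.

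The treated level was set against WT bone marrow for each segment, with no test. Ighv8-12 had 5.72 times its WT bone marrow share, the Ighv1-70 site 6.89 times and the Ighv1-11 site 2.20 times. Over 99 annotated segments with at least 100 junctions the median of this ratio was 0.616, and 3 of them were above each of Ighv8-12 and the Ighv1-70 site and 17 above the Ighv1-11 site. Those 3 were Ighv8-6 (9.72), Ighv8-9 (7.24) and Ighv1-54 (7.08), named after their values were seen. Unannotated segments were not ranked. One at 2361 kb from JH1, with 853 junctions, took 0.101% of VH junctions in WT bone marrow and 1.16% after treatment. Its ratio was thus higher than at any of the 3 sites, and it lay within 100 kb of the Ighv1-70 site. Annotated segments within 100 kb did not share one ratio. Near Ighv8-12 and the Ighv1-70 site it was 4.40 for Ighv8-11, 1.88 for Ighv1-69, 0.859 for Ighv1-66, 0.766 for Ighv1-67, 0.286 for Ighv1-72 and 0 for Ighv1-71, and it was 40.9 for Ighv8-13, which had 10 junctions in all. Near the Ighv1-11 site 11 segments ranged from 0.0902 for Ighv1-5 to 3.20 for Ighv1-12, and all but Ighv1-12 were under 1. Ratios above and below the median of all annotated segments thus lay side by side in both neighbourhoods.

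**Figure D2:**
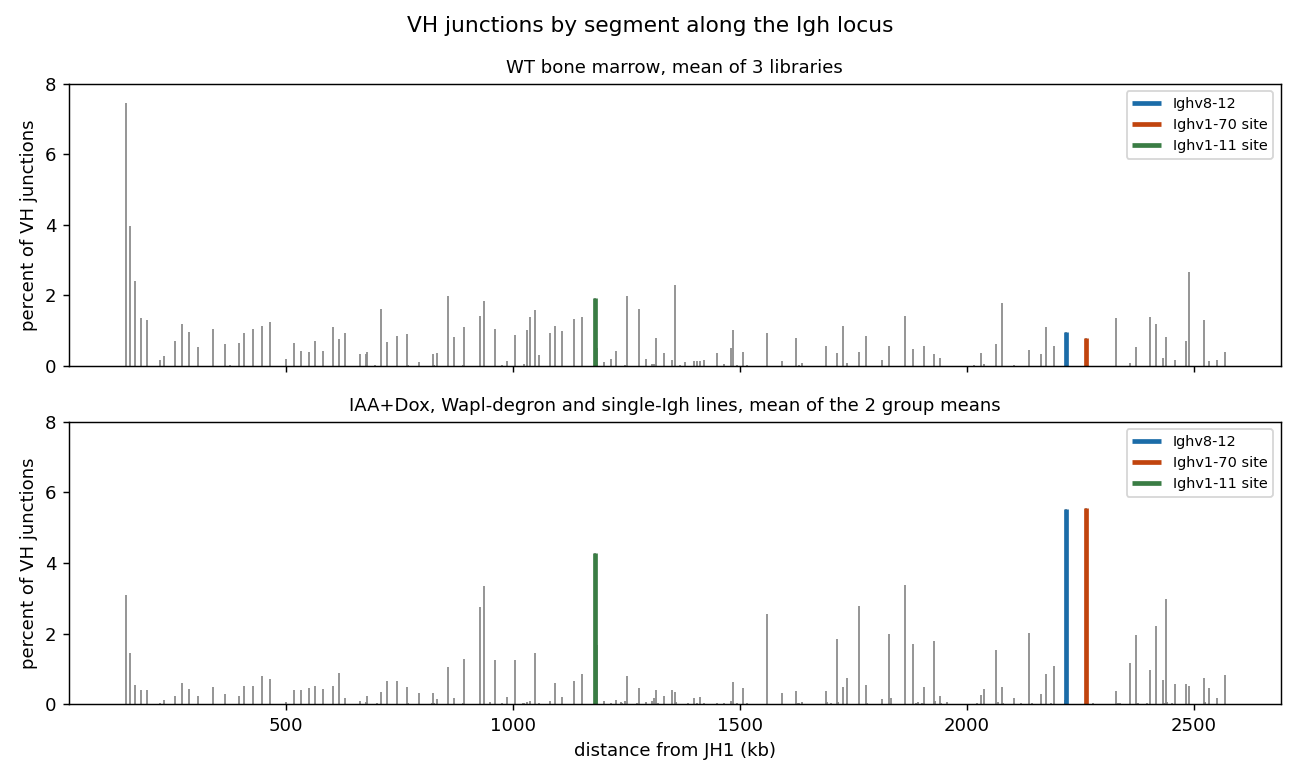
Percent of VH junctions at each segment against its distance from JH1 (kb), for WT bone marrow (mean of 3 libraries) and for IAA and Dox (mean of the Wapl-degron and single-Igh group means). Each vertical line is a segment, grey except at the 3 sites, which reach 4.28% to 5.55% after treatment and 0.806% to 1.94% in WT bone marrow.

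The nearest segments on either side of the sites, all unannotated, held few junctions. Annotated genes within 100 kb held from 10 junctions (Ighv8-13) to 7235 (Ighv1-18), with 2582 at Ighv1-12, 3.6 kb from the Ighv1-11 site. With at least 10 junctions in the whole data set, the nearest to Ighv8-12 were a segment 297 bp nearer to the D segments, with 38 junctions, all of them in treated libraries, and one 1365 bp further away with 15. The Ighv1-70 site had 20 and 22 junctions at its neighbours, 27283 bp and 3875 bp away, none of them in treated libraries. The neighbours of the Ighv1-11 site, 24745 bp and 2896 bp away, had 11 and 20. The sites themselves had 4629 (Ighv1-70), 6335 (Ighv8-12) and 7998 (Ighv1-11) junctions.

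In the inverted single-Igh line all 3 sites were listed at lower levels than in the uninverted one. With IAA and Dox, Ighv8-12 had 0, 12 and 31 junctions in the 3 libraries of the inverted single-Igh line, the Ighv1-70 site 0, 2 and 3, and the Ighv1-11 site 0, 3 and 12. The distinct junctions behind them were 6, 2 and 4, and 1 library had just 144 VH junctions, where a count of 0 allows up to 2.08% of VH junctions or 0.00490% of all junctions. As a percent of all junctions the means were 0.00496% ± 0.00473, 0.000607% ± 0.000526 and 0.00167% ± 0.00184, against 0.264% ± 0.00697, 0.227% ± 0.00118 and 0.193% ± 0.0124 in the uninverted line (n = 3 each). The uninverted line was higher by 53.1-fold, 374-fold and 116-fold. Leaving out 1 library gave log2 ratios, inverted over uninverted, of -6.59 to -5.15, -8.96 to -7.96 and -8.15 to -6.27, where the lowest was without inverted replicate 3 and the highest without inverted replicate 1. As a percent of VH junctions it was higher by 5.84-fold, 41.2-fold and 12.7-fold. The uninverted libraries chose the sites, so this contrast too is without a test. Within each of the 2 libraries with junctions Ighv8-12 was listed 6.00 and 10.3 times as often as the Ighv1-70 site. Each ratio rests on 3 distinct junctions at Ighv8-12 and 1 at the Ighv1-70 site, so it depends on repeated lines. Without the inversion the ratio was 1.13 to 1.19 treated and 3.25 to 8 untreated in the single-Igh line.

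The inverted bone marrow played no part in the choice and was compared with WT bone marrow by limma on junction counts per segment, with all junctions as the library size. Of 267 segments, 122 (45.7%) were lower and 26 (9.74%) higher at an adjusted p under 0.05, so a lower level was common in this comparison. Scaled to VH junctions, 123 of the 267 were lower and 62 higher. The Ighv1-70 site and the Ighv1-11 site were called lower and Ighv8-12 was not. A quasi-binomial model fitted to each segment by itself called none of the 267 segments (adjusted p 0.735 at all 3 sites, 4 segments at an unadjusted p under 0.05).

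The Ighv1-70 site took 0.0402%, 0.0456%, 0.0495% and 0.0473% of VH junctions in the 4 INV libraries, against at least 0.679% in each WT library. Its log2 difference, INV minus WT, was -4.82 ± 1.04 (SE, limma adjusted p 4.5e-05, lower in 4 of 4 libraries). The Ighv1-11 site took 0.120%, 0.179%, 0.206% and 0.158%, against at least 1.39%, with a log2 difference of -4.29 ± 0.91 (adjusted p 3.8e-05 by limma, lower in 4 of 4). Neither site had overlapping groups. Ighv8-12 took 0.449%, 0.484%, 0.359% and 0.509% of VH junctions, all below the lowest WT value of 0.710%. As a percent of all junctions its groups did overlap, 0.0311% to 0.0526% in INV and 0.0429% to 0.487% in WT, and its log2 difference was -1.73 ± 0.87 (limma adjusted p 0.0780). The median over all segments tested was -2.34. It was -1.73 when scaled to VH junctions and 0.69 over 540 segments with at least 1 junction. The differences at the Ighv1-70 site were -4.23 without WT replicate 1 and -5.55 without WT replicate 3. At the Ighv1-11 site the difference was -4.97 without WT replicate 3, and at Ighv8-12 it was -0.93 without WT replicate 1.

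The call at Ighv8-12 turned on the model and the scaling. With the sequencing run as a block, since both groups spanned the same 2 runs, its log2 difference was -1.86 (limma adjusted p 0.0278), and with a minimum of 100 junctions per segment -1.78 (limma adjusted p 0.0401). Scaled to VH junctions its log2 difference was -1.14 (adjusted p 0.000896), with D and VH junctions -3.38 (adjusted p 1.8e-07), and without WT replicate 3, where JH took 87.4% of the list, -2.75 (adjusted p 1.6e-04, all by limma). In the fit on distinct junctions it was -2.03 (limma adjusted p 5.5e-06). As a share of distinct VH junctions, however, Ighv8-12 took 0.896% ± 0.113 in INV (n = 4) and 0.987% ± 0.115 in WT (n = 3), and these groups overlapped, whereas the Ighv1-70 site took 0.0961% ± 0.0256 against 0.737% ± 0.0552 and the Ighv1-11 site 0.245% ± 0.0215 against 1.74% ± 0.295. Within the sequencing run that held 2 WT and 3 INV libraries the log2 differences in percent of VH junctions were -1.02 for Ighv8-12, -4.20 for the Ighv1-70 site and -3.62 for the Ighv1-11 site. Within the run of 1 library each they were -1.25, -4.08 and -3.54. By rank Ighv8-12 stood at 5 in INV bone marrow, the Ighv1-70 site at 70 and the Ighv1-11 site at 27, in libraries where Ighv5-2 alone took 83.9% of VH junctions.

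**Figure D3:**
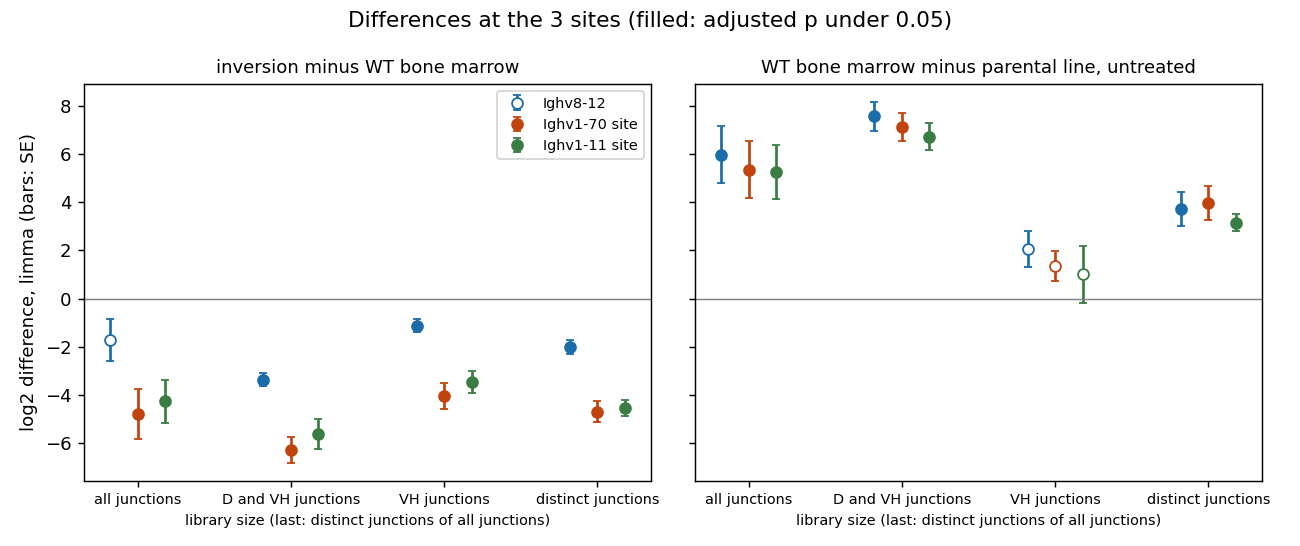
Log2 differences with standard errors (limma) at the 3 sites for INV minus WT bone marrow (left) and WT bone marrow minus the untreated parental line (right), under 4 ways of counting and scaling; filled points have an adjusted p under 0.05. On the left Ighv8-12 lies between -1.14 and -3.38 and the other sites are lower under each scaling.

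The sites therefore parted from each other in INV bone marrow, and a ratio within each library shows this without any scaling. Ighv8-12 was listed 11.2, 10.6, 7.25 and 10.8 times as often as the Ighv1-70 site in the 4 INV libraries, against 1.58, 1.30 and 0.806 times in the 3 WT libraries. Relative to the Ighv1-11 site it was listed 3.75, 2.71, 1.74 and 3.23 times against 0.769, 0.522 and 0.309 times. In neither ratio did the groups overlap. Each difference had a two-sided exact permutation p of 0.0571, the smallest that 4 against 3 libraries allow, so the design cannot reach 0.05. The log2 difference was 3.05 for the first ratio and 2.46 for the second, and this test was chosen after the values were seen. With IAA and Dox the first ratio was 0.842 to 0.880 in Wapl-degron and 1.13 to 1.19 in single-Igh cells, and without treatment it was 8, 7.67 and 3.25 in the single-Igh line, on 9 junctions at the Ighv1-70 site, and 0.727 to 2.71 in the Wapl-degron line. The untreated values 8 and 7.67 lay within the INV bone marrow range.

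**Figure D4:**
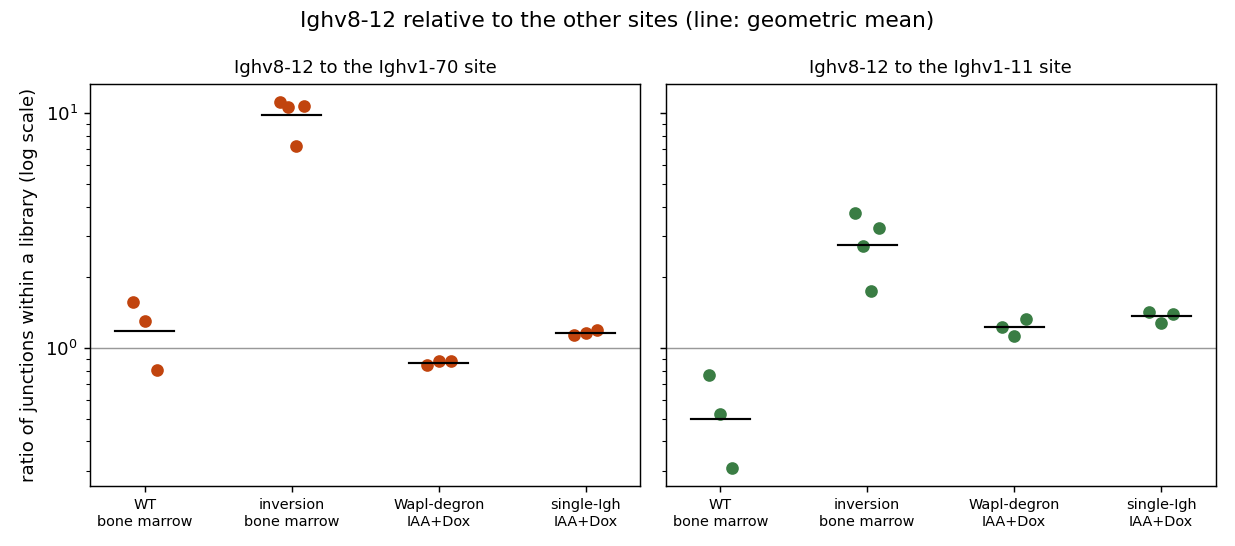
Junctions at Ighv8-12 divided by junctions at the Ighv1-70 site (left) or the Ighv1-11 site (right) within each library, on a log scale, for 4 groups; points are libraries and lines geometric means. The INV bone marrow libraries lie at 7.25 to 11.2 on the left and 1.74 to 3.75 on the right, above all WT bone marrow libraries.

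The untreated Wapl-degron line did not differ from the parental line at a limma adjusted p under 0.05 for any of 67 segments (0 higher and 0 lower, 0%, with 2 segments at an unadjusted p under 0.05, and 0 called by the quasi-binomial model). The log2 differences were -0.60 ± 0.71 at Ighv8-12, -1.03 ± 0.76 at the Ighv1-70 site and 0.20 ± 0.43 at the Ighv1-11 site (SE, n = 3 against 3, limma adjusted p 0.875 each). The sites had 32, 20 and 167 junctions in the untreated Wapl-degron line. The 2 groups were sequenced in different runs, so line and run cannot be told apart.

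WT bone marrow was set against the untreated parental line, from which it differs in cell source, transformation, transgenes and sequencing run, none of which can be told apart. Of 182 segments, 124 (68.1%) were higher in bone marrow and 0 lower by limma (126 at an unadjusted p under 0.05). Ighv8-12 was higher by 5.99 ± 1.18 on the log2 scale (SE, limma adjusted p 2.3e-06), the Ighv1-70 site by 5.37 ± 1.17 (adjusted p 1.6e-05) and the Ighv1-11 site by 5.27 ± 1.12 (adjusted p 1.2e-05), beside a median of 5.52 over all segments. The quasi-binomial model called none of the 182 (adjusted p 1.00 at the 3 sites, 0 segments at an unadjusted p under 0.05). The differences lay between 5.33 (without WT replicate 1) and 7.11 (without WT replicate 3) at Ighv8-12, between 4.60 (without WT replicate 1) and 6.21 (without parental replicate 1) at the Ighv1-70 site, and between 4.77 (without WT replicate 1) and 5.92 (without WT replicate 3) at the Ighv1-11 site. At the Ighv1-70 site the difference was 5.95 without WT replicate 3. With each distinct junction counted once the differences were 3.71 at Ighv8-12, 3.98 at the Ighv1-70 site and 3.15 at the Ighv1-11 site. All 3 were still called, where 118 of 136 segments were called higher and 2 lower. They lay below the median of 4.36 over these segments. Scaled to VH junctions the differences were 2.07, 1.34 and 1.02 with a median of 1.44, and none was called (limma adjusted p 0.0583, 0.118 and 0.510). With that scaling 45 segments were higher in bone marrow and 7 lower. The VH part of the list was 22.7% ± 20.5 in bone marrow and 1.02% ± 0.224 in the parental line.

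The Ighv8 genes, the family of Ighv8-12, differed widely in level. Of 8 annotated genes 7 had a junction. Their sum was 3.08% of VH junctions in WT bone marrow, 11.6% in the treated Wapl-degron and 12.7% in the treated single-Igh libraries, mostly from Ighv8-12 and Ighv8-8. Ighv8-8 took 3.25% ± 0.423 and 3.51% ± 0.377 in the treated lines and Ighv8-11 1.83% ± 0.294 and 2.21% ± 0.142. Ighv8-9, the closest in sequence, took 0.315% ± 0.0511 and 0.534% ± 0.0934. In WT bone marrow Ighv8-8 took 1.43%, Ighv8-11 0.459% and Ighv8-9 0.0587%, so the treated share was 2.37, 4.40 and 7.24 times as high, beside 5.72 times for Ighv8-12. Of 6 Ighv8 genes tested in INV against WT bone marrow, 4 fell and 0 rose, where 45.7% of all segments were called lower (median log2 difference -3.18, against -2.34 over all 267 segments), and the 2 that were not called were Ighv8-11 and Ighv8-12. Scaled to VH junctions or to D and VH junctions, with distinct junctions, or with the sequencing run as a block 6 of 6 fell, and by the quasi-binomial model 0. Lower calls were common in those limma fits. Of all segments tested they were 123 of 267, 154 of 267, 133 of 154 and 131 of 267, in the same order of settings. In WT bone marrow against the parental line 6 of 6 were higher, where 68.1% of all segments were (median 5.80 against 5.52). Scaled to VH junctions, and also by the quasi-binomial model, 0 of the 6 were called. In the untreated degron line against the parental line 0 of 4 were called. These lists share members and libraries with the results above.

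Over the 8 group means the pattern of Ighv8-12 was most like that of an unannotated site at 1594 kb from JH1 (Pearson r 0.965), then Ighv1-77 (0.942), Ighv1-76 (0.915), an unannotated site at 1828 kb (0.901) and Ighv8-9 (0.894), by log2(percent of VH junctions + 0.01). The median r of 134 segments with at least 100 junctions was 0.612, and all points share the same libraries and denominators. Ighv1-76 took 0.366% of VH junctions in INV bone marrow and 2.08% and 2.36% in the treated lines.

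The structure of the joints was not used to choose the sites. An identical joint to JH1 was found at all 3 sites, in 6, 5 and 6 of the 6 treated libraries, and is shown to let the coding ends be compared. The inserted bases, which match a D segment other than the one nearest to JH, are in capitals between the VH part and the JH1 part. The borders are those of the alignments, so a D base equal to the next genomic base is counted with the neighbouring part.
Ighv8-12 joint: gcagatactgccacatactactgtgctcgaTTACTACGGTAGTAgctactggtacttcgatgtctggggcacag
Ighv1-70 site joint: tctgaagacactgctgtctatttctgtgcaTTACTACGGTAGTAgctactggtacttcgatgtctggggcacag
Ighv1-11 site joint: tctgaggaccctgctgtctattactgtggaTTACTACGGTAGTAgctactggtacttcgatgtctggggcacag

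These joints lacked 4, 3 and 3 bases of the VH coding end and were listed 14, 17 and 31 times. Ighv8-12 had 748 different joints in the 6 treated libraries, of which 177 occurred in at least 2 libraries. The Ighv1-70 site had 665 (184 in at least 2) and the Ighv1-11 site 567 (144 in at least 2).

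The coding end was kept to a different degree at each site. In the 6 treated libraries the VH sequence ended exactly at the coding end in 57.1% ± 5.66 of plus-strand junctions at the Ighv1-70 site, in 19.2% ± 3.71 at the Ighv1-11 site and in 12.4% ± 2.65 at Ighv8-12. The Ighv1-70 range, 49.8% to 64.6%, overlapped neither of the others, 15.0% to 23.9% and 9.92% to 16.2%. The median of 90 other annotated segments was 43.3%, and 13 of them were above the Ighv1-70 site. In WT bone marrow the order was the same, 69.2% ± 5.49, 32.7% ± 4.39 and 16.5% ± 1.85 (n = 3), beside a median of 52.2%. At Ighv8-12 the alignment ran past the coding end in 17.4% ± 2.74 of treated junctions, mostly by 1 base, against 11.1% ± 2.84 and 8.25% ± 2.79 at the Ighv1-70 and Ighv1-11 sites. An inserted base equal to the next genomic base is counted with the VH sequence, so the exact end is uncertain by such matches. These shares are a description, without a test.

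**Figure D5:**
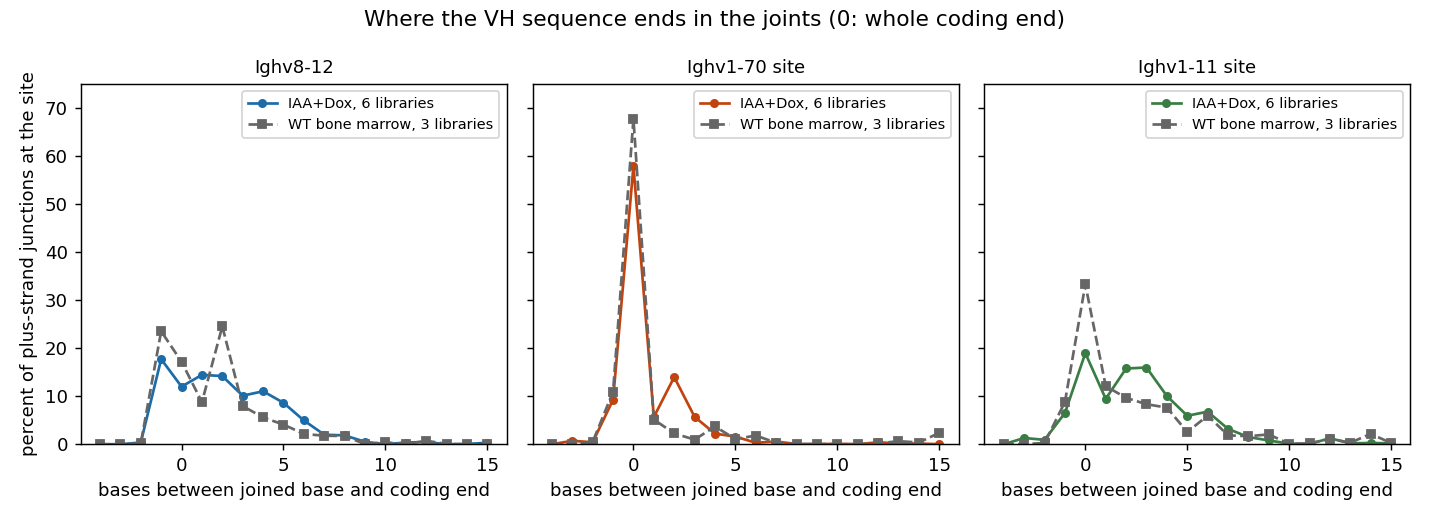
Percent of plus-strand junctions at each site by the number of bases between the joined base and the coding end (0 is a whole coding end, negative values run into the heptamer), pooled over the 6 IAA and Dox libraries and over the 3 WT bone marrow libraries. The Ighv1-70 site has a single high peak at 0. With IAA and Dox Ighv8-12 is highest at -1 (17.7%) and the Ighv1-11 site at 0 (18.9%), both with a wide spread. In WT bone marrow Ighv8-12 is highest at 2 (24.5%), with 23.5% at -1, and the Ighv1-11 site at 0 (33.2%).

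The number of bases inserted between VH and JH did not differ past the test from that at other VH junctions. In the treated libraries the medians averaged 11.5 ± 1.05 bases at Ighv8-12, 11.2 ± 0.408 at the Ighv1-70 site and 12.2 ± 0.753 at the Ighv1-11 site, against 11.5 ± 0.548 for all other VH junctions of the same 6 libraries. In the 7 bone marrow libraries they were 16.7 ± 1.38, 18.7 ± 6.68 and 18.4 ± 5.0 against 17.3 ± 0.488. In two-sided exact sign-flip permutation tests over libraries no site was past the threshold in either set (smallest raw p 0.25, adjusted p 0.713 over 6 tests). The inserts were listed up to 30 bases long. A D segment was recognised by a match of at least 6 bases to any of 21 D segments. How often such a match arises by chance was not tested. By this rule a D segment other than the nearest was recognised in 72.4% ± 7.51, 70.3% ± 8.05 and 80.4% ± 5.41 of plus-strand junctions in treated libraries. At other VH segments the share was 72.6% ± 3.03.

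The JH segment joined did not differ past the test between the sites and the other VH junctions of the same treated libraries. The largest difference was at JH1, which took 37.1% ± 26.6 of junctions at the Ighv1-70 site against 42.0% ± 27.2 elsewhere, a difference of -4.95 percentage points, lower in 5 of 6 libraries (two-sided exact sign-flip permutation p 0.0625, adjusted p 0.75 over 12 tests). For Ighv8-12 the differences over JH1 to JH4 lay within -0.93 and 0.48 percentage points. JH use itself varied strongly between libraries, as the SDs show.

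Nearly all junctions at the sites lay on the plus strand, which for the uninverted locus is the orientation of joining by deletion. The shares over all libraries were 99.0% at Ighv8-12, 99.4% at the Ighv1-70 site and 99.6% at the Ighv1-11 site. In INV bone marrow Ighv8-12 had 100%, 88.4%, 95.4% and 91.6% on the plus strand (93.9% ± 5.00, with 39 of 864 junctions on the minus strand), against 100% in each WT library. The difference of -6.15 percentage points had a two-sided exact permutation p of 0.229 (adjusted p 0.343 over 3 tests, smallest possible p 0.0571). In the inverted single-Igh line with IAA and Dox 7 of 43 junctions at Ighv8-12 lay on the minus strand, with plus-strand shares of 91.7% and 80.6% in the 2 libraries with junctions, each of 3 distinct junctions. In the untreated single-Igh line without the inversion the shares were 81.3%, 100% and 100%, on 16, 23 and 13 junctions. In INV bone marrow the share at the Ighv1-11 site was 97.2% ± 2.62 and at the Ighv1-70 site 100%, also with no difference past the test.

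The number of lines per distinct junction differed between groups. Each distinct junction at Ighv8-12 was listed 6.50 times in WT bone marrow, 4.04 times in INV bone marrow, 1.74 times in treated Wapl-degron cells, 2.46 times in treated single-Igh cells and 7.17 times in the inverted single-Igh line, there on 6 distinct junctions. At the Ighv1-70 site the values were, in the same order, 7.20, 3.61, 1.91, 2.79 and 2.50, and at the Ighv1-11 site 7.46, 4.93, 1.76, 2.36 and 3.75. The libraries carry no molecular identifiers, so a repeated line may be a copy of 1 joint or a second identical joint.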

How the data were processed

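The authors' deposited lists hold 1 junction per line, with other values only: where the prey lies and on which strand, the bait alignment and the read, per the file headers. Alignment was to mm9, and Bowtie2 is named in the submitters' processing notes, with no version. Counts were made here by counting lines. Junctions of 25 full JH-bait lists were merged into segments where neighbours lay 20 bp or less apart, named by mm9 annotation, with symbols updated through RefSeq synonyms. The lists were of 8 sequencing runs by their read names.

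For each pair of groups, segments with 10 junctions or more went into limma 3.58.1 in R 4.3.3 (voom, lmFit, eBayes, prior count 0.5), with Benjamini-Hochberg adjustment over all segments and a threshold of 0.05. On simulated data for INV against WT bone marrow (262 segments) 100% of 40 segments changed 8-fold were recovered. The simulated spread between libraries was smaller than the real one at Ighv8-12 in WT bone marrow, 0.0429% to 0.487% of all junctions. The recovery therefore does not measure the power of the fit on the real libraries. Other tests were exact permutation tests (Python 3.11.15, scipy 1.17.1, numpy 2.4.6, pandas 2.3.3), and plots used matplotlib 3.10.9. Counting intervals and limits cover counting error only. WT bone marrow replicate 4 and the pooled lists were not used here in any comparison.

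Replicate numbers are shared by the groups. The deviations from the group means correlated by 0.354, 0.404 and 0.120 between same-numbered libraries of the untreated Wapl-degron and parental lines, a pairing that comes from the data alone, and by at most 0.05 in the other comparisons. Alternatives were another library size, distinct junctions, other count minimums, a replicate or sequencing run block, a quasi-binomial model, a wider window and each library left out.

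The genes named are the 3 sites, the 3 segments that follow them in the treated libraries, the nearest segments, annotated segments within 100 kb, the 5 most like Ighv8-12, the Ighv8 genes and the closest genes in sequence. The segments within 100 kb, the sequence relatives and the 3 with a higher treated over WT ratio than Ighv8-12 were added after values were seen. So were the unannotated segments at 1736, 1931 and 2361 kb from JH1. The sites, lists and tests were chosen with earlier results of these data known.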

Additional observations from a re-analysis of the deposited data

Results flagged for a closer look

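One value stood apart in the INV bone marrow group, the only group of 4 libraries. At the Ighv1-70 site 4.76% of junctions in replicate 4 had the bait end at JH1, and 0% in each of the other 3 libraries, where the site had 37, 13 and 12 junctions. The value rests on 1 of 21 junctions. In all 33 such measures were checked, and chance alone marks about 1 in 20 of them.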

How the results depend on the processing

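Of 508 values recomputed under an alternative, 0 called values changed sign. In INV against WT bone marrow Ighv8-12, not called as reported (adjusted p 0.0780), was called with VH junctions as the library size (log2 -1.14), D and VH junctions (-3.38), distinct junctions (-2.03), segments with at least 100 junctions (-1.78), the replicate block, which also drops INV replicate 4 (-2.09, adjusted p 0.0354; without that library and with no block -1.78, adjusted p 0.130) and the sequencing run as a block (-1.86). In each of those fits the median over all segments tested was lower than the value at Ighv8-12. With 1 library left out Ighv8-12 ranged from -2.75 to -0.93, and of these 7 fits the one without WT replicate 3 called it. The quasi-binomial model, fitted per segment, called 0 segments in that comparison, where limma called 148 (4 at an unadjusted p under 0.05), and 0 where it called 124 (0 at an unadjusted p under 0.05), with log2 values of -4.91 and -4.35 at the Ighv1-70 and Ighv1-11 sites, and 5.91, 5.47 and 5.32 at the 3 sites for WT bone marrow against the parental line. There, VH junctions as the library size gave 2.07, 1.34 and 1.02 and 52 called segments (45 higher, 7 lower) in place of 124. The replicate block changed no other call at the 3 sites. It called 144 segments in place of 124 for WT bone marrow against the parental line. For INV against WT it called 156 of 249 segments on 6 libraries, beside 137 on the same libraries with no block. Its numbers did not pair the libraries in the bone marrow comparisons.

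The rises with IAA and Dox, as log2 ratios of Ighv8-12, the Ighv1-70 site and the Ighv1-11 site, were 4.71, 5.80 and 2.19 by VH junctions and 5.37, 6.43 and 3.03 by distinct junctions in the Wapl-degron line, and 4.27, 6.59 and 2.59, then 4.59, 6.89 and 2.78, in the single-Igh line. With the inversion they were -2.55, -5.36 and -3.67 by VH junctions, and -7.27 at the Ighv1-70 site by distinct junctions. Each read name counted once, added after seeing the data, moved none of them beyond the spread.

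Differences that were not called changed sign as follows. Inserted bases at Ighv8-12 in bone marrow differed by 0.43 with distinct junctions and 0.080 with the mean. JH4 at Ighv8-12 differed by -0.015 percentage points with distinct junctions. At the Ighv1-11 site JH1 differed by -1.28 with distinct junctions and -0.32 against distal VH junctions, and JH2 by 0.59 with distinct junctions. With 1 library left out the ranges were -0.17 to 3.50 bases (Ighv1-70 site) and -0.33 to 2.50 (Ighv1-11 site) in bone marrow, and in percentage points -1.67 to 0.25, -0.065 to 1.02, -0.64 to 0.94 and -1.17 to 0.97 for JH1 to JH4 at Ighv8-12, and -0.18 to 0.79 (JH1) and -1.39 to 0.17 (JH4) at the Ighv1-11 site. The cause was not tested. Segments with at least 100 junctions left no value at some sites in the untreated lines. The untreated degron lines had 9 to 52 junctions at Ighv8-12 and the Ighv1-70 site.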

Other observations

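None of the 3 sites appeared in the off-target lists of JH-bait libraries or in Igk-bait lists. In 14 lists of off-target junctions of single libraries, with 103830 junctions in all, 0 were at the sites; how off-target junctions were selected is not given in the sources used here. In 12 full lists with a bait in the Igk light chain locus, 0 of 568001 junctions were at the sites, which allows a share of up to 0.000528%. These lists held 0 junctions in the whole VH region, so the 0 is not particular to the sites.

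The first D segment reached from JH, an 11 bp segment, was recognised in 5.75% ± 2.27 of plus-strand junctions at Ighv8-12, 7.82% ± 3.31 at the Ighv1-70 site and 2.69% ± 2.04 at the Ighv1-11 site in the 6 treated libraries, and in 6.08% ± 1.66 at other VH segments. Inserts of 0 bases made up 3.65% ± 0.849, 3.59% ± 1.01 and 2.00% ± 2.08 of the junctions, and 2.71% ± 0.372 elsewhere. In WT bone marrow they made up 0.0171% ± 0.0295 at Ighv8-12, 1.32% ± 1.33 at the Ighv1-70 site, 0.570% ± 0.921 at the Ighv1-11 site and 0.333% ± 0.0625 elsewhere.

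The unannotated segment 297 bp from Ighv8-12 had its 38 junctions in treated libraries alone, 0.120% of VH junctions there, and 0 in WT bone marrow. Other unannotated segments also had 0 in WT bone marrow and some use after treatment. One at 1736 kb from JH1 took 0.0401% of VH junctions in treated libraries, and one at 1931 kb took 0.100%.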
